A study of Mus musculus with 12 samples.

Results

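Cathepsins are the proteases of the lysosome, and 10 of their genes were followed here across 4 populations of bone stromal cells. The 10 genes were Ctsd, Ctsk, Ctsb, Ctsl, Ctss, Ctsz, Ctsh, Ctsf, Ctso and Ctsa, chosen by name with measured levels of these same libraries in view. They stand among 23 cathepsin genes of the annotation, 18648 genes that were tested and 49585 gene identifiers that were counted, and all 10 were tested. Because measured levels had a part in that choice, the levels and differences below describe these genes, the calls are those of a fit across all genes, and nothing about cathepsins as a group is read from their number.

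Cathepsins are made as inactive precursors, carried to the lysosome by mannose 6-phosphate receptors and switched on by the acid that the vacuolar ATPase pumps in. Most are cysteine proteases of the papain family, which cystatins hold in check. In bone the best known is cathepsin K, with which osteoclasts dissolve the collagen of the matrix, while cathepsin S trims the invariant chain in antigen-presenting cells. Of the 10 members, 8 are cysteine proteases, 1 (Ctsd) is an aspartic protease and 1 (Ctsa) is a serine carboxypeptidase.

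The cells came from wild-type male C57BL/6 mice of 8 to 10 weeks in steady state, and all 4 populations were sorted as negative for CD45, Ter119 and CD31. Of these, 3 were sorted from collagenase-digested bone fragments of the endosteum: Itga8+Alcam+Sca-1- cells (Itga8+ MSCs, mesenchymal stem cells), Itga8-Alcam+Sca-1- cells (Itga8-Alcam+ BLCs, bone-lining cells labelled as osteoblasts) and Alcam-Sca-1+ cells (Sca-1+ MSCs). CD51+CD140a+ MSCs were sorted from flushed marrow digested with Accumax, so that preparation and population cannot be told apart in comparisons with them. Each population had 3 libraries of 2000 cells, with 17580677 to 31332475 counts per library, and as the labels do not say whether these came from separate animals, the p-values measure only the spread between libraries. In these bulk samples more cells of a type and more RNA per cell cannot be told apart. The 4 populations are called Itga8+ cells, BLCs, Sca-1+ cells and CD51+CD140a+ cells from here on.

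Among transcripts of the sort markers Ly6a (Sca-1) lay at 611 to 659 CPM (counts scaled to library size) in Sca-1+ cells and at most 35.7 CPM elsewhere. Pdgfra (CD140a) lay at 682 to 867 CPM in CD51+CD140a+ cells and as high, at 734 to 1019 CPM, in Sca-1+ cells. Itga8 lay at 35.2 to 199 CPM in Itga8+ cells and at most 4.17 CPM in BLCs, but also at 53.1 to 82.9 CPM in CD51+CD140a+ cells. Alcam was low everywhere, at 1.29 to 5.82 CPM in the Alcam+ populations and at most 0.221 CPM in the others. Both Itga8+ replicate 2 and Itga8- replicate 3 stood apart from the rest: they had 11.9% and 7.29% of their counts on protein-coding genes with under 1500 exon bases, against 2.41% to 4.38% in the other 10 libraries. Itga8+ replicate 2 was the highest library of its population for all 10 cathepsins, and Itga8- replicate 3 for 9 of 10, the exception being Ctss. Results of members that rest on these libraries are given with and without them.

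As a pool, the 10 cathepsins held 2632 to 4912 TPM (counts scaled by exon length and library size) in a library. By the mean over populations the order on this scale was Ctsz at 915 TPM, Ctsb at 748, Ctsk at 641, Ctsd at 564, Ctsa at 242, Ctsl at 230, Ctsh at 132, Ctsf at 119, Ctso at 60.1 and Ctss at 25.6 TPM. Ctsz lay above 99.2% of the genes tested and Ctss above 72.1%. The choice of members was not a limit on level, since 3 unlisted cathepsins lay among them: Ctsg at 211 TPM, Ctse at 113 TPM and Ctsc at 48.0 TPM, against 60.1 TPM for Ctso and 25.6 TPM for Ctss.

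**Figure D1:**
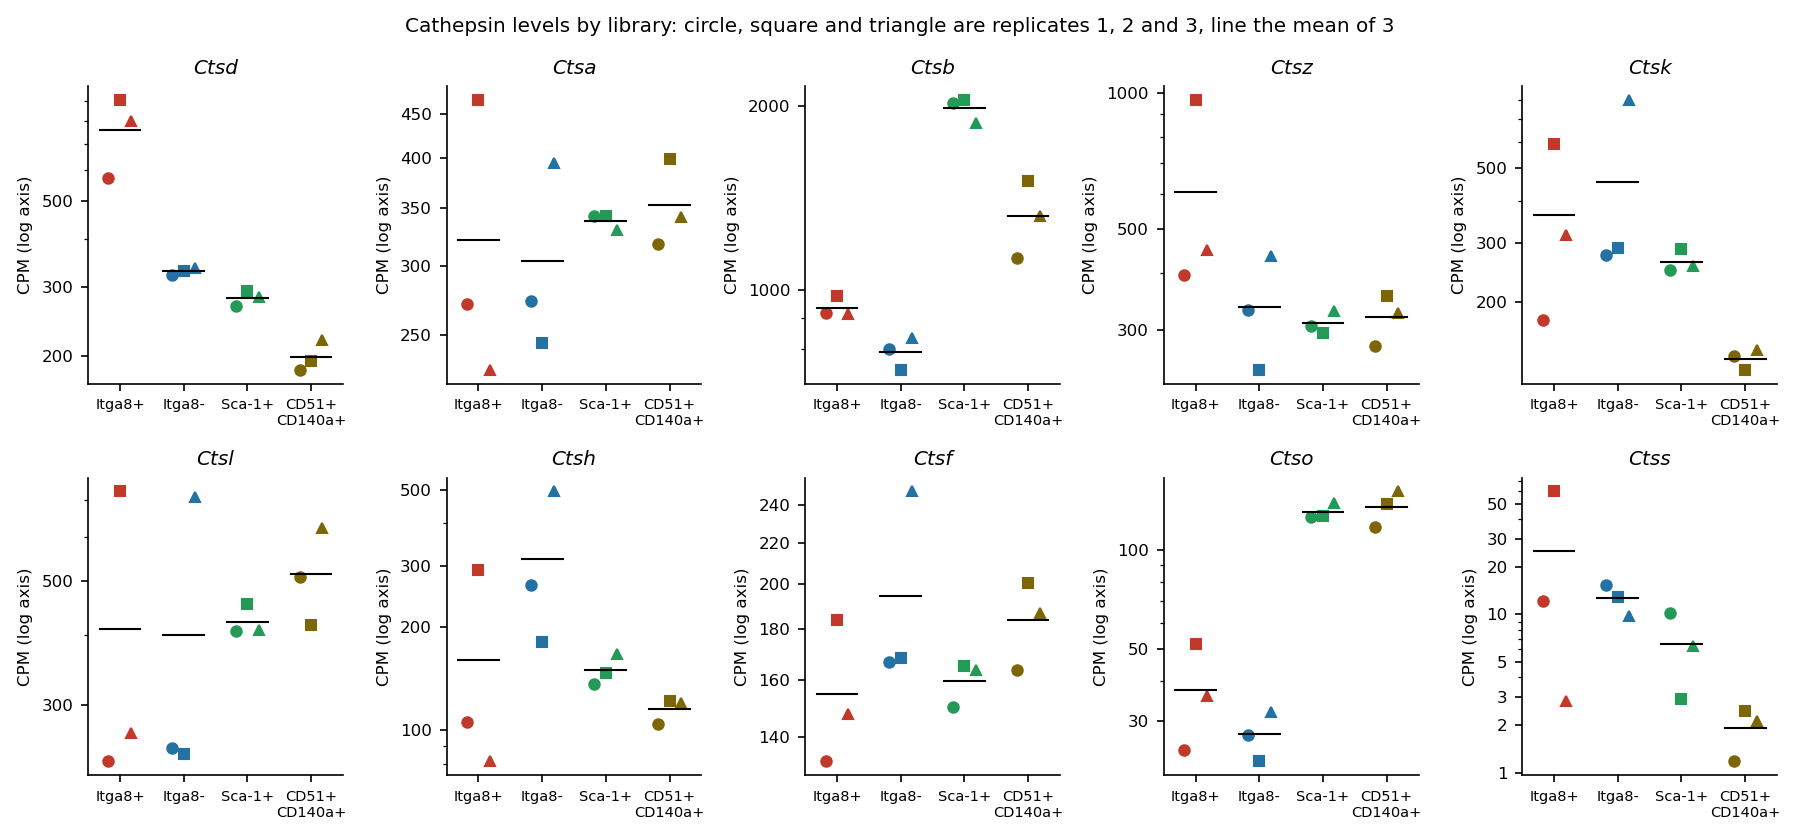
Level of each of the 10 cathepsins in CPM (log axis, which differs between panels) in every library of the 4 populations, with the mean of 3 libraries as a line. Ctsd is highest in all 3 Itga8+ libraries (570 to 907 CPM), Ctso splits the populations into a low and a high pair, and Itga8+ replicate 2 and Itga8- replicate 3 stand out in Ctsk, Ctsl, Ctsh and Ctsa.

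A gene was called in a comparison when edgeR's quasi-likelihood test gave an adjusted p (FDR, Benjamini-Hochberg over all genes tested) under 0.1 with a fold above 2. Between Itga8+ cells and BLCs 1 member was called higher in Itga8+ cells and 0 were called lower, beside 1.66% and 2.16% of all genes. Against Sca-1+ cells 1 member was called higher in Itga8+ cells and 2 lower, beside 12.9% and 8.89% of all genes. Against CD51+CD140a+ cells 3 members were called higher in Itga8+ cells and 1 lower, beside 21.2% and 14.3% of all genes.

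For BLCs, 0 members were called higher and 2 lower than in Sca-1+ cells, beside 14.5% and 11.9% of all genes. Against CD51+CD140a+ cells 3 members were called higher in BLCs and 1 lower, beside 20.4% and 14.9%. Between Sca-1+ cells and CD51+CD140a+ cells edgeR called 0 members, beside 11.2% of all genes higher in Sca-1+ cells and 9.30% higher in CD51+CD140a+ cells. Nothing is read from these counts, since the members were chosen with the same data in view. The median log2 fold change of the members lay between 0.02 and 0.17 in the 6 comparisons, and that of all genes between 0.00 and 0.18. These comparisons share libraries and so are not independent of each other.

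**Figure D2:**
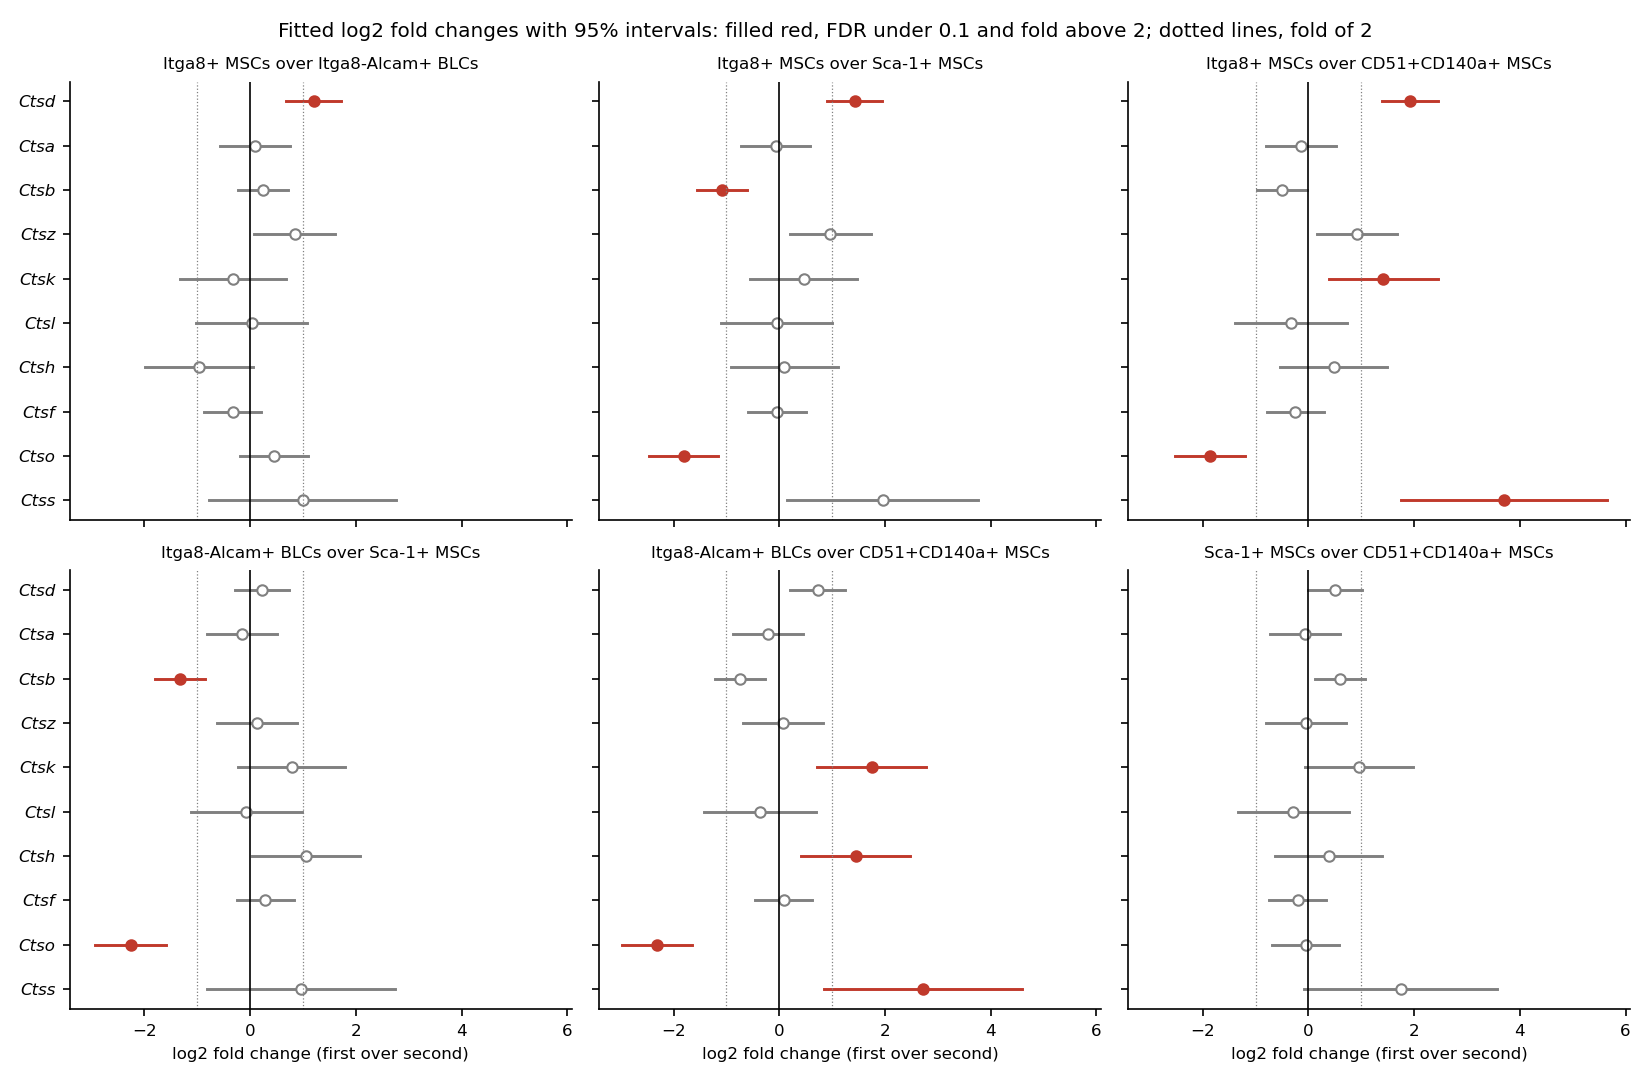
Fitted log2 fold change of each cathepsin in the 6 comparisons of populations, with its 95% interval; filled red points were called by edgeR (FDR under 0.1 and fold above 2), and dotted lines mark a fold of 2. Calls fell on Ctsd, Ctsb, Ctso, Ctsk, Ctss and Ctsh, while Ctsa, Ctsl, Ctsf and Ctsz have open points throughout.

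Ctsd encodes cathepsin D, the main aspartic protease of the lysosome, which cleaves prosaposin and activates other hydrolases. Its level was 570, 907 and 798 CPM in the 3 libraries of Itga8+ cells and 322, 331 and 336 CPM in BLCs. In Sca-1+ cells it was 269, 294 and 284 CPM, and in CD51+CD140a+ cells 185, 194 and 220 CPM. In CPM the 4 populations did not overlap in any library, and they are given in descending order. Per length BLCs and Sca-1+ cells changed places, at 415 and 446 TPM. Ctsd was called higher in Itga8+ cells than in BLCs (log2 fold change 1.20, SE 0.239, FDR = 0.0189), Sca-1+ cells (1.43, SE 0.240, FDR = 0.00226) and CD51+CD140a+ cells (1.93, SE 0.244, FDR = 0.000134), in edgeR's test.

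The lower steps of Ctsd were smaller. BLCs and Sca-1+ cells differed by 0.23 on the log2 scale (95% interval -0.29 to 0.74, FDR = 0.523 in edgeR's test), and with library totals in place of TMM scaling they differed about equally from Itga8+ cells (1.44 and 1.45). The other steps were 0.73 between BLCs and CD51+CD140a+ cells (FDR = 0.0367 in edgeR's test, a fold under 2), and 0.50 between Sca-1+ and CD51+CD140a+ cells (95% interval -0.01 to 1.01). Without both libraries that stood apart the calls against the 3 other populations stayed, at 1.09, 1.30 and 1.80. When only the Itga8+ and Itga8- libraries were fitted, the difference between them was 1.19 but was not called (FDR = 0.255 in edgeR's test).

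Ctsd lies at chr7:142375911-142388038 on the minus strand (GRCm38, the build of mm10). Of its 2351 exon bases 34.4% are also annotated as exons of Gm49369 on the same strand, and 67.6% of its 50-base words occur in no other gene. Gm49369 was listed at 0 counts in all 12 libraries. How reads on the shared bases were assigned is not given in the sources used here, so the level of Ctsd relative to other genes is uncertain.

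The promoters of Ctsd and Ctso are shown because these members had the most calls and opposite patterns, and that of Ctsa because it too holds TCACGTGA. Capitals mark the E-box CACGTG, the core of the element that TFEB and its relatives bind at lysosomal genes. The sequences are from RefSeq (GRCm38.p6), run from 250 bases before to 50 bases after the start that RefSeq gives, and lie at chr7:142387778-142388077 (minus strand), chr2:164833523-164833822 (plus strand, the second of the Ctsa promoters in the table) and chr3:81932351-81932650 (plus strand).
Ctsd: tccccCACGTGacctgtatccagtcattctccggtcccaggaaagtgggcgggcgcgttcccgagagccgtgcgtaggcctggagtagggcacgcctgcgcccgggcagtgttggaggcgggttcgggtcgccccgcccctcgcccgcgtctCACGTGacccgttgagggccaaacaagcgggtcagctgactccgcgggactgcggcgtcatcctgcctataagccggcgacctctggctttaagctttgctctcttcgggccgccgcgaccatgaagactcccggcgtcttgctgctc
Ctsa: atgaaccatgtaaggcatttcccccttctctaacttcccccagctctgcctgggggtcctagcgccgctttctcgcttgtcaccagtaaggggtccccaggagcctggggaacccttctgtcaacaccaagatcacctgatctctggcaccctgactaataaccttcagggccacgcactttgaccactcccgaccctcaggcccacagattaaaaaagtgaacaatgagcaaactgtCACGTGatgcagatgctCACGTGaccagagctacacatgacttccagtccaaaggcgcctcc
Ctso: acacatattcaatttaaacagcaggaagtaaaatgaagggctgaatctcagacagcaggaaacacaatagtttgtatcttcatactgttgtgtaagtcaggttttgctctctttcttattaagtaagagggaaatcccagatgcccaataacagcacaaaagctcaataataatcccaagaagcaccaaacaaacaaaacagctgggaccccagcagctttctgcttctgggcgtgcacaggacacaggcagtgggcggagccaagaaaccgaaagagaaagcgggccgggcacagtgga
The table gave 9 promoters for 8 members, Ctsb and Ctsh not among them. CACGTG, which reads the same on both strands, was in 7.15% of all 32851 promoters and in those of Ctsa, Ctsd, Ctsf and Ctsl, 4 of the 8 members. TCACGTGA, which contains CACGTG, was in 0.974% of all promoters and in those of Ctsa and Ctsd, and the longer CLEAR palindrome around it was in 0.326% of all and in none of the members. The match in Ctsa is in a window whose RefSeq start has no transcript start of the GENCODE annotation in it, and the other Ctsa window, which has one, holds no CACGTG. These matches describe the letters in the windows and are no evidence of binding.

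Ctsb encodes cathepsin B, a cysteine protease that also removes dipeptides from the ends of proteins. Its level was 2022, 2050 and 1879 CPM in Sca-1+ cells, 1128, 1507 and 1322 CPM in CD51+CD140a+ cells, 915, 975 and 911 CPM in Itga8+ cells and 798, 739 and 835 CPM in BLCs. The populations again did not overlap, in an order that put Sca-1+ cells first. In edgeR's test Ctsb was called lower in Itga8+ cells than in Sca-1+ cells (log2 fold change -1.09, SE 0.219, FDR = 0.00655) and lower in BLCs than in Sca-1+ cells (-1.33, SE 0.221, FDR = 0.00155).

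Other steps of Ctsb were below a fold of 2: -0.74 between BLCs and CD51+CD140a+ cells (FDR = 0.0238 in edgeR's test), -0.50 between Itga8+ and CD51+CD140a+ cells (FDR = 0.102) and 0.59 between Sca-1+ and CD51+CD140a+ cells (FDR = 0.0904). With a trend in gene length removed, the difference between Itga8+ and Sca-1+ cells was -0.80 and was not called. Ctsb lies at chr14:63122462-63145923 (plus strand), and 12.8% of its exon bases are exons of Fdft1 on the opposite strand.

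Ctso encodes cathepsin O, a widely expressed cysteine protease whose substrates are less well known. It was measured at 24.5, 51.9 and 35.9 CPM in Itga8+ cells and at 27.3, 22.6 and 32.1 CPM in BLCs. In Sca-1+ cells it was 126, 128 and 140 CPM, and in CD51+CD140a+ cells 118, 139 and 152 CPM. Every library of the Alcam+ populations was below every library of the other populations, and within each pair the libraries overlapped.

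In edgeR's test Ctso was called lower in Itga8+ cells than in Sca-1+ cells (log2 fold change -1.81, SE 0.30, FDR = 0.00206) and CD51+CD140a+ cells (-1.86, SE 0.301, FDR = 0.000745). The differences of BLCs from the same populations were -2.26 (SE 0.305, FDR = 0.000419) and -2.31 (SE 0.306, FDR = 0.000177). Within the pairs the log2 fold changes were 0.45 between Itga8+ cells and BLCs (95% interval -0.18 to 1.09) and -0.05 between Sca-1+ and CD51+CD140a+ cells (-0.68 to 0.58). All 4 calls of Ctso were kept in each of the 18 alternative analyses, where they ranged from -2.66 to -1.58. Ctso lies at chr3:81932601-81956725 (plus strand), and no exon of it overlaps another gene.

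Ctsk encodes cathepsin K, the collagenase of osteoclasts, which stromal cells can also make. Levels were 177, 593 and 318 CPM in Itga8+ cells, 277, 289 and 802 CPM in BLCs, 249, 288 and 256 CPM in Sca-1+ cells and 138, 126 and 144 CPM in CD51+CD140a+ cells. The endosteal populations overlapped one another, and all of their libraries lay above those of CD51+CD140a+ cells. The highest value of each Alcam+ population was in the library that stood apart.

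Against CD51+CD140a+ cells Ctsk was called higher by edgeR in Itga8+ cells (log2 fold change 1.42, SE 0.471, FDR = 0.0406) and BLCs (1.75, SE 0.476, FDR = 0.0163). Without both libraries that stood apart these were 0.89, which was no longer called, and 1.06, which was. The former was also lost when the trend in gene length was removed (0.80) and when CD51+CD140a+ replicate 2 was left out (1.36, FDR = 0.108 in edgeR's test). Sca-1+ cells differed from CD51+CD140a+ cells by 0.96 (95% interval -0.06 to 1.98).

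Osteoclast markers were compared because Ctsk is a product of that cell. Of 10 osteoclast genes Calcr was at 0 in all 12 libraries, Dcstamp, Ocstamp, Oscar and Siglec15 were each at most 0.843 CPM, and Atp6v0d2 was at most 1.25 CPM outside Sca-1+ cells, where it lay at 6.25 to 9.32 CPM. Acp5, the acid phosphatase of osteoclasts, was at 20.3, 43.0 and 12.4 CPM in Itga8+ cells, 21.8, 15.2 and 32.3 CPM in BLCs, 39.3 to 42.3 CPM in Sca-1+ cells and 14.1 to 19.2 CPM in CD51+CD140a+ cells. The summed level of the list was 161 to 590 CPM in Itga8+ cells, 278 to 715 CPM in BLCs, 381 to 553 CPM in Sca-1+ cells and 85.0 to 150 CPM in CD51+CD140a+ cells, of which most was Nfatc1, a transcription factor that is not specific to osteoclasts. Of the 7 osteoclast genes tested edgeR called 3 higher and 0 lower in Itga8+ cells and in BLCs than in CD51+CD140a+ cells (Nfatc1, Atp6v0d2 and Dcstamp), beside 21.2% and 20.4% of all genes higher. In Sca-1+ cells 5 were higher than in CD51+CD140a+ cells, Acp5 and Itgb3 with the former 3, beside 11.2% of all genes. Atp6v0d2 and Itgb3 were lower than in Sca-1+ cells in Itga8+ cells and BLCs, beside 8.89% and 11.9% of all genes lower. Without both libraries that stood apart Acp5 was also called lower in Itga8+ cells (-1.28) and BLCs (-1.14) than in Sca-1+ cells. The 2 libraries with the most Ctsk had the lowest sums of their populations but the highest Acp5. The part of osteoclasts in the level of Ctsk was not tested.

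Ctss encodes cathepsin S, which is active at neutral pH and is typical of macrophages and antigen-presenting cells. By its mean over populations it was the lowest member, although per length Ctso lay below it in Itga8+ cells (23.3 against 50.8 TPM) and BLCs (15.5 against 28.3 TPM). Its level was 12.2, 60.1 and 2.83 CPM in Itga8+ cells, 15.2, 12.9 and 9.71 CPM in BLCs, 10.2, 2.90 and 6.33 CPM in Sca-1+ cells and 1.18, 2.47 and 2.13 CPM in CD51+CD140a+ cells. Its counts ranged from 43 to 1157 per library. Only the CD51+CD140a+ libraries lay below all others, and Itga8+ cells alone spanned nearly the whole range.

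In edgeR's test Ctss was called higher than in CD51+CD140a+ cells in Itga8+ cells (log2 fold change 3.70, SE 0.897, FDR = 0.00925) and in BLCs (2.71, SE 0.862, FDR = 0.0328). Without Itga8+ replicate 2 the former fell to 2.00 (FDR = 0.0358 in edgeR's test), so that the size of the difference rested on that library. The latter was not called without CD51+CD140a+ replicate 1 (2.45, FDR = 0.108). Between Itga8+ and Sca-1+ cells the log2 fold change was 1.95 with a 95% interval of 0.14 to 3.77 and was not called (FDR = 0.129 in edgeR's test). It was 0.26 without both libraries that stood apart (FDR = 0.82), and the difference between Itga8+ cells and BLCs went from 0.99 to -0.86, neither called. In that setting Ctss was called higher in Sca-1+ than in CD51+CD140a+ cells (1.75, FDR = 0.0545 in edgeR's test).

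Macrophage and monocyte markers were compared because Ctss is typical of these cells. The summed level of 14 such genes was 1021, 3598 and 375 CPM in the libraries of Itga8+ cells and 1105, 1142 and 1163 CPM in those of BLCs. It was 644, 200 and 344 CPM in Sca-1+ cells and 173, 134 and 102 CPM in CD51+CD140a+ cells. Within Itga8+ and Sca-1+ cells the libraries had the same order in Ctss and in this sum, in BLCs the order was reversed, and in CD51+CD140a+ cells the library with the least Ctss had the highest sum. All 14 genes had counts in Itga8+ cells, BLCs and CD51+CD140a+ cells, and 13 of 14 did in Sca-1+ cells. edgeR called 6 of the 14 higher in Itga8+ cells than in CD51+CD140a+ cells, 6 higher in BLCs than in CD51+CD140a+ cells, and 0 lower in either, beside 21.2% and 20.4% of all genes higher. Over Sca-1+ cells it called 10 higher in Itga8+ cells and 3 in BLCs (12.9% and 14.5% of all genes), comparisons in which Ctss was not called, and 2 were higher in Sca-1+ than in CD51+CD140a+ cells (11.2%). In Itga8+ cells the sum was highest in replicate 2, and replicate 3 lay within the range of Sca-1+ cells. Without both libraries that stood apart Cd68 of this list fell from 2.44 to 1.10 in Itga8+ over Sca-1+ cells and was not called. Over CD51+CD140a+ cells it stayed called in Itga8+ cells (1.93).

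Genes of antigen-presenting cells (the invariant chain gene Cd74, the MHC class II genes H2-Aa, H2-Ab1 and H2-Eb1, and the receptor gene Flt3) summed to 28.4 to 128 CPM in Itga8+ cells, 23.0 to 64.1 CPM in BLCs, 4.88 to 48.9 CPM in Sca-1+ cells and 9.45 to 14.2 CPM in CD51+CD140a+ cells. The sort removed CD45+ cells, and Ptprc, which encodes CD45, lay at 3.54 to 31.6 CPM over the 12 libraries. The part of such cells in the level of Ctss was not tested.

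**Figure D3:**
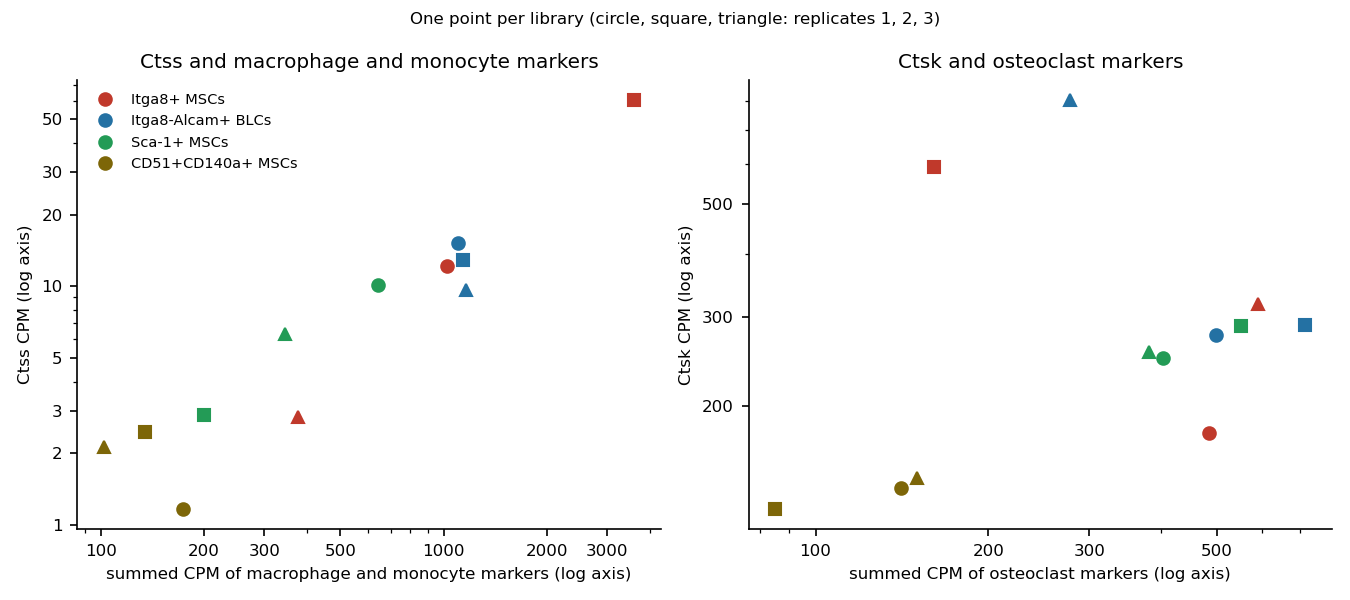
Left, Ctss against the summed CPM of 14 macrophage and monocyte markers; right, Ctsk against the summed CPM of 10 osteoclast markers, with 1 point per library, colours for populations and log axes. The CD51+CD140a+ libraries are lowest in both Ctss (1.18 to 2.47 CPM) and marker sum and Itga8+ replicate 2 (60.1 CPM) is highest in both, with a reversed order within BLCs; the osteoclast sum on the right is mostly Nfatc1.

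Ctsk and Ctss are neighbours on chromosome 3, at chr3:95499256-95509362 and chr3:95526786-95556403 (both plus strand), with 17423 bases from the end of the former to the start of the latter. Neither shares an exon base with another gene, and all of their 50-base words are unique to them. Over the 12 libraries their log2 levels had a Pearson r of 0.63 and a Spearman rho of 0.55. On the per-length scale Ctsk lay far above its neighbour, at 641 TPM against 25.6 TPM.

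Ctsh encodes cathepsin H, which acts mainly as an aminopeptidase. It was measured at 106, 293 and 81.2 CPM in Itga8+ cells, 265, 181 and 496 CPM in BLCs, 137, 147 and 167 CPM in Sca-1+ cells and 105, 122 and 120 CPM in CD51+CD140a+ cells. BLCs were the highest population and lay above both Sca-1+ and CD51+CD140a+ cells in every library, with 1 Itga8+ library among them. edgeR called Ctsh higher in BLCs than in CD51+CD140a+ cells (log2 fold change 1.45, SE 0.474, FDR = 0.0376). That call was lost without Itga8- replicate 3 (0.95, FDR = 0.159 in edgeR's test) and without CD51+CD140a+ replicate 1 (1.38, FDR = 0.107).

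Between Itga8+ cells and BLCs, Ctsh differed by -0.97 (95% interval -1.99 to 0.05) with all libraries. Without both libraries that stood apart the difference was -1.22 and edgeR called it (FDR = 0.0325). Ctsh lies at chr9:90054152-90076089 (plus strand).

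Ctsz encodes cathepsin Z (also called X), a carboxypeptidase with an integrin-binding motif in its propeptide. Levels were 397, 969 and 449 CPM in Itga8+ cells, 332.5, 244.5 and 436 CPM in BLCs, 306, 295 and 331 CPM in Sca-1+ cells and 276, 357 and 326 CPM in CD51+CD140a+ cells. All Itga8+ libraries lay above those of Sca-1+ and CD51+CD140a+ cells but overlapped BLCs. The log2 fold changes of Itga8+ cells over the other 3 populations were 0.84, 0.96 and 0.92, none of them called, with an FDR of 0.338, 0.0831 and 0.0669 in edgeR's test.

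Ctsz in Itga8+ cells rested on replicate 2: without it the same differences were 0.35, 0.43 and 0.43, and without Itga8+ replicate 1 or replicate 3 those from Sca-1+ and CD51+CD140a+ cells, at 1.08 to 1.19, passed both thresholds. Among the 3 other populations the differences of Ctsz lay between -0.04 and 0.12. Ctsz lies at chr2:174427493-174439039 (minus strand).

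Ctsa, Ctsf and Ctsl were called in none of the 6 comparisons and had small differences throughout. For Ctsa, the carboxypeptidase that protects neuraminidase and beta-galactosidase in a complex, libraries ranged from 227 to 468 CPM and the log2 fold changes from -0.21 to 0.08. For Ctsf, a cysteine protease with a long cystatin-like propeptide, they ranged from 132 to 248 CPM and from -0.33 to 0.28. For Ctsl, cathepsin L, which activates other cathepsins and degrades a wide range of proteins, they ranged from 238 to 725 CPM and from -0.36 to 0.03.

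The intervals behind these values differ. Over the 6 comparisons the 95% limits of Ctsa and Ctsf stayed within -0.88 and 0.83, so that no 2-fold difference lay inside them, while those of Ctsl reached from -1.42 to 1.08. The wide limits of Ctsl came with 2 libraries, Itga8+ replicate 2 at 725 CPM and Itga8- replicate 3 at 707 CPM, against 238 to 268 CPM in the other 4 libraries of those populations. Without both, edgeR called Ctsl lower in Itga8+ cells (-1.0, FDR = 0.00431) and BLCs (-1.06, FDR = 0.00302) than in CD51+CD140a+ cells.

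The annotation limits these genes too. Ctsl lies at chr13:64359337-64370890 (minus strand), with 26.8% of its exon bases under Gm47123 on the opposite strand, and 6.09% under the pseudogene Gm49230. Ctsa lies at chr2:164832873-164841032 (plus strand), with 17.4% of its exon bases under Neurl2 and Pltp on the opposite strand. Ctsf lies at chr19:4855130-4860918 (plus strand) and overlaps no exon. Whether reads were counted by strand is not given in the sources used here.

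The make-up of the pool differed between populations. In the summed TPM of the 10 members Ctsb held 30.6% ± 1.32 (SD, n = 3) in Sca-1+ cells, 25.3% ± 1.86 in CD51+CD140a+ cells, 12.4% ± 3.97 in Itga8+ cells and 13.1% ± 3.31 in BLCs. Ctsd held 24.8% ± 4.96 in Itga8+ cells, 14.2% ± 4.11 in BLCs, 11.2% ± 0.310 in Sca-1+ cells and 9.89% ± 0.692 in CD51+CD140a+ cells. Both shares separated Itga8+ cells from Sca-1+ and CD51+CD140a+ cells in every library. Ctso held 2.40% ± 0.153 and 3.09% ± 0.188 in Sca-1+ and CD51+CD140a+ cells and 0.542% ± 0.0555 and 0.525% ± 0.0913 in Itga8+ cells and BLCs.

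Which member led the pool depended on the lengths used. In Itga8+ cells Ctsz led with 30.0% ± 3.61 by exon length, but Ctsd led when only exon bases of no other gene were used as lengths. Ctsk led in BLCs with 26.8% ± 8.03, of which replicate 3 alone had 35.9%, and without that library it held 22.2% and Ctsz led. In CD51+CD140a+ cells Ctsz, with 25.8% ± 1.33, and Ctsb were within their spread. Sca-1+ cells were led by Ctsb under every length tried.

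**Figure D4:**
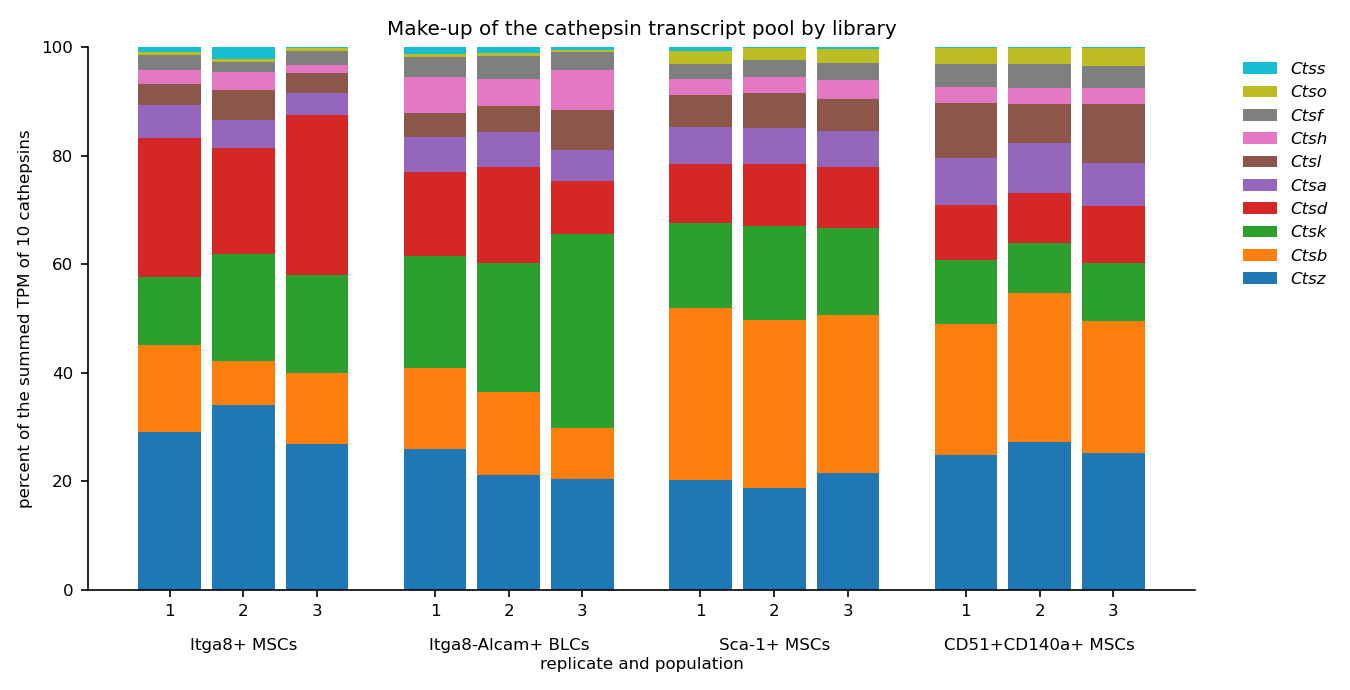
Percent of the summed TPM of the 10 cathepsins held by each member (stacked bars) in each of the 12 libraries. Ctsb takes 29.2% to 31.7% in Sca-1+ libraries and Ctsd 19.5% to 29.3% in Itga8+ libraries, and Ctsk takes 35.9% in Itga8- replicate 3.

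Pairs of members varied together to different degrees over the 12 libraries, which share populations and depth, so that these values are descriptions. On log2(CPM + 1) the highest Pearson r was between Ctsb and Ctso (0.88, Spearman rho 0.83), followed by Ctsl and Ctsa (0.86, rho 0.77), Ctsk and Ctsh (0.78, rho 0.60) and Ctsd and Ctsz (0.75, rho 0.64). The lowest was between Ctsd and Ctso (-0.60, rho -0.64).

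Outside the family, the genes most like the 3 members of highest level were searched among 9149 genes with a mean of at least 10 CPM over the 12 libraries. Ctsb was most like Ecm1 (r = 0.983, rho 0.98), an extracellular matrix protein with a mean of 4423 CPM in Sca-1+ cells, 465 CPM in CD51+CD140a+ cells, 131 CPM in Itga8+ cells and 82.4 CPM in BLCs. Trip10 (0.970) and Rragc (0.951) came next. Ctsz was most like Arl2 (0.967), Degs1 (0.960) and Dtd1 (0.956), and Ctsk most like Ufm1 (0.966), Gnl3 (0.949) and Ikbip (0.948).

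Of the other 13 cathepsin genes, 9 had 0 counts in all 12 libraries: Cts3, Cts6, Cts7, Cts8, Ctsj, Ctsll3, Ctsm, Ctsq and Ctsr. The other 4 were Ctsg, Ctse, Ctsc and Ctsw. Ctsg, a serine protease of neutrophil granules, was at 41.3, 478 and 36.9 CPM in Itga8+ cells, 49.0, 75.6 and 93.7 CPM in BLCs, 25.8, 11.6 and 17.4 CPM in Sca-1+ cells and 17.6, 39.6 and 17.9 CPM in CD51+CD140a+ cells. Itga8+ replicate 2 was again far above the rest. edgeR called it higher in Itga8+ cells than in Sca-1+ cells (log2 fold change 3.34, SE 0.885, FDR = 0.0252) and CD51+CD140a+ cells (2.89, SE 0.866, FDR = 0.0266), although in the latter comparison the libraries overlapped. Without Itga8+ replicate 2 the differences of Ctsg were 1.08 and 0.67, neither called (FDR = 0.126 and 0.287 in edgeR's test). Without both libraries that stood apart Ctsg was called in Itga8+ cells over Sca-1+ cells (1.12, FDR = 0.092) but not over CD51+CD140a+ cells (0.67, FDR = 0.254). In that setting it was also called higher in BLCs than in Sca-1+ cells (1.77, FDR = 0.0123) and CD51+CD140a+ cells (1.31, FDR = 0.0339), where the differences with all libraries, 1.99 and 1.54, were not called by edgeR.

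Neutrophil markers were compared with Ctsg. The summed level of 8 such genes was 7080, 18864 and 2916 CPM in Itga8+ cells, 8700, 6742 and 5953 CPM in BLCs, 1021 to 2322 CPM in Sca-1+ cells and 1126 to 1781 CPM in CD51+CD140a+ cells, with counts for all 8 genes in every population. Itga8+ replicate 2 was the highest library in both, while within BLCs the order of Ctsg was the reverse of that of the sum. The part of such cells in the level of Ctsg was not tested.

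Ctse, an aspartic protease, was called lower in BLCs than in CD51+CD140a+ cells by edgeR (-1.05, SE 0.443, FDR = 0.0928), at 57.3 to 93.3 CPM against 122 to 171 CPM, but not without both libraries that stood apart (-0.91, FDR = 0.0554), where the fold was under 2. In that setting it was instead called lower than in CD51+CD140a+ cells in Itga8+ cells (-1.05, FDR = 0.0347, against -0.37 with all libraries) and in Sca-1+ cells (-1.09, FDR = 0.0194, and -1.09 with all libraries, FDR = 0.126 in edgeR's test). Ctsc, which activates granule proteases, was called in no comparison and lay between 20.5 and 115 CPM. Ctsw, a protease of cytotoxic lymphocytes, was at most 3.66 CPM. At that low level edgeR called it higher than in CD51+CD140a+ cells in Itga8+ cells (4.0, FDR = 0.0269) and BLCs (5.27, FDR = 0.00757), and higher in BLCs than in Sca-1+ cells (2.82, FDR = 0.084). The last was 2.49 and not called without both libraries that stood apart (FDR = 0.156).

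Protein inhibitors hold cathepsins in check inside and outside the cell. Of the 96 called fold changes of listed genes that the naming rule gave, here and in the lists that follow, 55 were called in all 18 alternatives and 0 changed sign in any. Those described here that were called in 12 or fewer are given with that number. Of 14 listed inhibitors 9 were tested, and edgeR called 0 of them between Itga8+ cells and BLCs (1.66% and 2.16% of all genes). Against Sca-1+ cells 4 were higher and 1 lower in Itga8+ cells (12.9% and 8.89% of all genes), and 3 higher and 1 lower in BLCs (14.5% and 11.9%). Against CD51+CD140a+ cells 6 were higher and 1 lower in Itga8+ cells (21.2% and 14.3%), and 3 higher and 1 lower in BLCs (20.4% and 14.9%). Sca-1+ cells had 2 higher and 1 lower than CD51+CD140a+ cells (11.2% and 9.30%). The counts of higher inhibitors in Itga8+ cells rested in part on Itga8+ replicate 2: without it 3 were called over CD51+CD140a+ cells, Cst3, Cst6 and Ctla2b being lost, and 2 over Sca-1+ cells, Serpina3g and Ctla2b being lost.

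The inhibitor with the highest level was Cst3 (cystatin C), the main secreted inhibitor of cysteine cathepsins. It lay at 2219, 7937 and 1671 CPM in Itga8+ cells, 3362, 1919 and 6537 CPM in BLCs, 1339, 1370 and 1645 CPM in Sca-1+ cells and 1004, 1553 and 1136 CPM in CD51+CD140a+ cells. The highest values were in both libraries that stood apart. edgeR called Cst3 higher than in CD51+CD140a+ cells in Itga8+ cells (log2 fold change 1.68, FDR = 0.0442) and BLCs (1.68, FDR = 0.0436), and higher in BLCs than in Sca-1+ cells (1.44, FDR = 0.0909, called in 7 of the 18 alternatives). Without those libraries the first was 0.69 and the third 0.87, neither called, and the second was 1.11 and called.

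Serpina3g, an intracellular serpin that inhibits cathepsin B among others, was at 690, 513 and 726 CPM in CD51+CD140a+ cells and at most 19.8 CPM in any other library. The log2 fold changes of CD51+CD140a+ cells over the other populations were the largest of the inhibitors. In edgeR's test they were -5.99 for Itga8+ cells (FDR = 6.14e-05), -6.46 for BLCs (FDR = 4.08e-05) and -8.00 for Sca-1+ cells (FDR = 1.64e-05) relative to CD51+CD140a+ cells. Serpina3g belongs to a cluster of closely related genes, among which reads may be split. Its small differences among the endosteal populations, 2.01 for Itga8+ cells and 1.54 for BLCs over Sca-1+ cells, were called in 13 and 8 of the 18 alternatives.

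Serpinb6a, which inhibits cathepsin G, was at 240 to 241 CPM in the Sca-1+ libraries, against 51.3 to 163 CPM in the others. edgeR called it lower than in Sca-1+ cells in Itga8+ cells (-1.20, FDR = 0.0329) and BLCs (-1.57, FDR = 0.0075), and higher in Sca-1+ than in CD51+CD140a+ cells (2.05, FDR = 0.00127). Serpinb1a, another inhibitor of granule proteases, was at 25.1 ± 3.58 CPM (SD, n = 3) in CD51+CD140a+ cells and was called higher in Itga8+ cells (2.26, FDR = 0.00686, and 1.34 without both libraries that stood apart), BLCs (1.94, FDR = 0.0138) and Sca-1+ cells (1.50, FDR = 0.064, called in 11 of the 18 alternatives).

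Cst7 (cystatin F), an inhibitor of leukocytes, was at 15.8, 61.1 and 9.07 CPM in Itga8+ cells and 12.3 to 23.7 CPM in BLCs, against 1.68 to 4.26 CPM in the other populations. All 4 of its differences between these pairs were called by edgeR, at 3.09, 3.24, 2.48 and 2.63, and without both libraries that stood apart at 1.91, 2.07, 2.41 and 2.57. Ctla2a and Ctla2b, near copies of each other that resemble cathepsin propeptides, were called higher in Itga8+ cells than in Sca-1+ and CD51+CD140a+ cells, with Itga8+ replicate 2 far above the others (42.1 and 5.09 CPM). Without both libraries that stood apart Ctla2a was called at 1.05 and 1.16, against 2.19 and 2.30 with them, and Ctla2b, at 2.25 and 1.35 against 3.55 and 2.65, was not (the latter was called in 11 of the 18 alternatives). Cst6 was called in Itga8+ cells over CD51+CD140a+ cells (4.45, FDR = 0.0359) from a level of at most 9.56 CPM, and was not called without those libraries (2.78, FDR = 0.172 in edgeR's test).

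**Figure D5:**
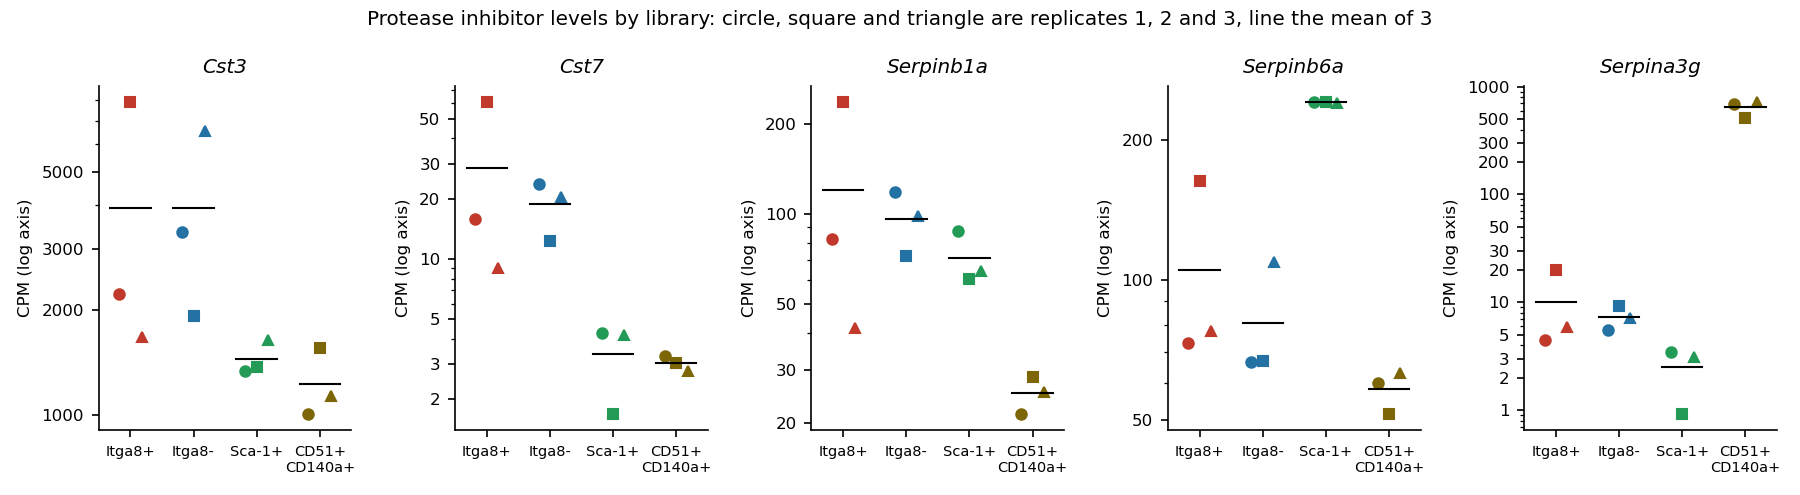
Level in CPM (log axis, which differs between panels) of 5 protease inhibitors in every library, with the mean of 3 libraries as a line. Serpina3g is high in all CD51+CD140a+ libraries (513 to 726 CPM), Serpinb6a is at 240 to 241 CPM in Sca-1+ libraries, and Itga8+ replicate 2 has the most Cst3, Cst7 and Serpinb1a.

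Of 13 genes listed for the activation and delivery of cathepsins edgeR called 0 between Itga8+ cells and BLCs (1.66% and 2.16% of all genes). Against CD51+CD140a+ cells 0 were higher in Itga8+ cells, BLCs or Sca-1+ cells, beside 21.2%, 20.4% and 11.2% of all genes higher. Meanwhile 4 were lower in Itga8+ cells, 3 in BLCs and 2 in Sca-1+ cells, beside 14.3%, 14.9% and 9.30% of all genes lower. When both libraries that stood apart were left out 3 were lower in each, and 1 was higher in Itga8+ cells and in BLCs. Without Itga8+ replicate 2 alone 2 were lower and 1 higher in Itga8+ cells than in CD51+CD140a+ cells. Against Sca-1+ cells 1 was higher and 0 lower in Itga8+ cells (12.9% and 8.89% of all genes), and 1 higher and 2 lower in BLCs (14.5% and 11.9%).

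Pla2g15, a lysosomal phospholipase, was at 19.7, 18.2 and 30.2 CPM in Itga8+ cells, 14.5, 26.2 and 14.8 CPM in BLCs, 43.7, 38.0 and 33.8 CPM in Sca-1+ cells and 113, 106 and 107 CPM in CD51+CD140a+ cells. edgeR called it lower than in CD51+CD140a+ cells in Itga8+ cells (-2.26, FDR = 0.000287), BLCs (-2.55, FDR = 0.000129) and Sca-1+ cells (-1.50, FDR = 0.00488), each in all 18 alternatives. Lgmn (legumain), which cuts cathepsin precursors, was lower in Itga8+ cells (-1.23, FDR = 0.0439), but not without both libraries that stood apart (-0.81). Sort1 (sortilin), which carries precursors to the lysosome, was at 8.16 ± 6.07 CPM in Sca-1+ cells (n = 3) and was called higher in Itga8+ cells (2.81, FDR = 0.0313), BLCs (3.36, FDR = 0.0119) and CD51+CD140a+ cells (-2.94 for Sca-1+ relative to them, FDR = 0.022). Gnptab, which makes the mannose 6-phosphate tag, was called lower than in CD51+CD140a+ cells in Itga8+ cells (-1.68, FDR = 0.078) and BLCs (-2.47, FDR = 0.0187). The former was called in 11 of the 18 alternatives and not with the replicate number as a block, and the latter in all 18.

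Few partners of single members were called. Neu1, the neuraminidase that Ctsa protects, was called higher in BLCs than in Sca-1+ cells (1.06, FDR = 0.00856) and CD51+CD140a+ cells (1.00, FDR = 0.00774), just past a fold of 2. The latter was called in 9 of the 18 alternatives, and neither was called without both libraries that stood apart (0.96 and 0.90). Glb1 and the 3 listed partners and substrates of Ctsd (Psap, Grn and Tpp1) gave 0 calls in the 6 comparisons. Psap, the precursor that cathepsin D cleaves, was at 403, 80.2 and 88.2 CPM in Itga8+ cells and 308.9 to 480 CPM in BLCs.

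Regulators of lysosomal genes were tested as a list of 9. Tfeb, a transcription factor that drives lysosomal genes, was at 27.3, 13.4 and 32.1 CPM in Itga8+ cells and 8.14, 7.60 and 13.3 CPM in CD51+CD140a+ cells. edgeR called it higher in Itga8+ cells (1.32, FDR = 0.016) and BLCs (1.24, FDR = 0.0211) than in CD51+CD140a+ cells. Mitf was at 5.48 to 12.3 CPM in Sca-1+ cells and at most 2.50 CPM elsewhere. It was called lower in Itga8+ cells than in Sca-1+ cells (-3.40, FDR = 0.0619) and higher in Sca-1+ than in CD51+CD140a+ cells (3.86, FDR = 0.036).

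Other lysosomal genes were counted in the same way. Of 30 hydrolases edgeR called 0 between Itga8+ cells and BLCs (1.66% and 2.16% of all genes). It called 2 higher and 4 lower in Itga8+ cells than in CD51+CD140a+ cells (beside 21.2% and 14.3% of all genes). In BLCs 2 were higher and 7 lower than in CD51+CD140a+ cells (20.4% and 14.9%). Hexa was higher (1.09 and 1.05) and Man2b1 (-1.62 and -1.41) lower in both, and the calls of Hexa were lost without both libraries that stood apart (0.91 and 0.86). Against Sca-1+ cells 0 hydrolases were higher and 2 lower in Itga8+ cells (12.9% and 8.89% of all genes), and 2 higher and 6 lower in BLCs (14.5% and 11.9%), among the latter Asah1 (-1.27). Sca-1+ cells had 1 higher and 2 lower than CD51+CD140a+ cells (11.2% and 9.30%).

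Of 9 lysosomal membrane genes 1 was called higher in Itga8+ cells than in Sca-1+ cells (12.9% of all genes) and 1 than in CD51+CD140a+ cells (21.2%). In BLCs 2 were higher than in Sca-1+ cells (14.5%) and 3 than in CD51+CD140a+ cells (20.4%). These comparisons had 0 lower, beside 8.89%, 14.3%, 11.9% and 14.9% of all genes. Between Itga8+ cells and BLCs 0 were called (1.66% and 2.16%), as between Sca-1+ and CD51+CD140a+ cells (11.2% and 9.30%). Of 18 subunits of the vacuolar ATPase 5 were called higher and 2 lower in Itga8+ cells than in CD51+CD140a+ cells (beside 21.2% and 14.3% of all genes). In BLCs 4 subunits were higher and 2 lower (20.4% and 14.9%), and in Sca-1+ cells 1 was higher and 1 lower (11.2% and 9.30%) than in CD51+CD140a+ cells. Against Sca-1+ cells 0 were higher and 1 lower in Itga8+ cells (12.9% and 8.89% of all genes) and in BLCs (14.5% and 11.9%). Between Itga8+ cells and BLCs 0 subunits were called (1.66% and 2.16%). Atp6v0b was higher than in CD51+CD140a+ cells in Itga8+ cells (1.80, FDR = 0.0119) and in BLCs (1.75, FDR = 0.0129), and at 1.16 and 1.30 without both libraries that stood apart, while Atp6v0e (0.79) and Atp6v1g1 (0.80) in Itga8+ cells were not called by edgeR without them. The median log2 fold change of the hydrolases lay between -0.55 and 0.28 in the 6 comparisons, and that of all genes between 0.00 and 0.18.

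Of 6 genes for matrix proteins that cathepsin K can cleave 3 were called between Itga8+ cells and BLCs, where Ctsk was not, beside 1.66% of all genes higher and 2.16% lower in Itga8+ cells: Col1a2 (-3.99, FDR = 0.0153) and Col1a1 (-3.90, FDR = 0.0592) were lower and Eln (3.00, FDR = 0.0902) higher in Itga8+ cells. The calls of Col1a1 and Eln were made in 12 and 9 of the 18 alternatives, and neither with the replicate number as a block. The interval of Ctsk in that comparison ran from -1.34 to 0.68. Col2a1, the collagen of cartilage, was at 60210, 7596 and 105479 CPM in Itga8+ cells and 34294, 63149 and 5269 CPM in BLCs, with its lowest values in the libraries that stood apart, which had the most Ctsk. Against CD51+CD140a+ cells 5 of the 6 were called higher and 0 lower by edgeR in each endosteal population, beside 21.2%, 20.4% and 11.2% of all genes higher in Itga8+ cells, BLCs and Sca-1+ cells. Against Sca-1+ cells 3 of the 6 were higher and 0 lower in Itga8+ cells (12.9% and 8.89% of all genes). In BLCs 4 were higher and 1 lower than in Sca-1+ cells (14.5% and 11.9%), and Ctsk was called in neither comparison.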

How the data were processed

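RNA was sequenced from 12 libraries of 2000 sorted cells each, 3 per population, made with SMART-Seq v4 and Nextera XT kits. The authors deposited whole-number counts of reads per Ensembl gene, with no normalization. The submitters' processing notes name FastQC 0.11.7, Trimmomatic 0.38, HISAT2 2.1.0, SAMtools 1.9, featureCounts 1.6.3 and the mm10 build, while the study's methods name TopHat and Bowtie2 as aligners. The annotation release and the strand setting are not given in the sources used here.

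Every gene that reached 0.5 CPM in any library was tested with edgeR 4.0.16 (R 4.3.3) by the quasi-likelihood test with TMM scaling, in 1 fit of all 12 libraries with 6 comparisons of populations, and p-values were adjusted by Benjamini-Hochberg over the 18648 genes tested. The thresholds, FDR under 0.1 and fold above 2, are those of the study. The script was tested on simulated counts. TPM used the exon union of GENCODE M21 (GRCm38). limma 3.58.1, DESeq2 1.42.0, other scalings and filters, a replicate block and leaving out each library were alternatives. The fits that left out both libraries that stood apart, removed a trend with gene length or changed the transcript lengths were added after seeing the data. The 3-count floor, which covers counting error only, was 0.082 to 0.18 CPM, and the 95% intervals of fold changes come from the fit of all libraries. From each other list up to 3 called genes of highest mean CPM were named per comparison, and all called inhibitors. Some genes that this rule names are not reported here. Psap, Glb1 and the marker genes are given outside that rule, chosen after their values were seen. For the 3 members of highest mean TPM the 3 genes of highest Pearson r were named. The members and lists were chosen with earlier results of these data known.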

Additional observations from a re-analysis of the deposited data

How the results depend on the processing

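Of the 14 called fold changes of members, each recomputed under 18 alternatives, 242 of 252 values were called, 0 had the opposite sign, and 9 fold changes were called under all 18. The number of members called between Itga8+ cells and BLCs was 1, beside 310 of all genes higher and 402 lower in Itga8+ cells. It was 0 when only the populations compared were fitted (276 of all genes called) and 2 without both libraries that stood apart (659). With single libraries left out it was 1 to 2 (433 to 886 of all genes). Against Sca-1+ cells Itga8+ cells had 3 members called, beside 2397 of all genes higher and 1658 lower. With single libraries left out they had 3 to 5 (2386 to 5878 of all genes), with 5 without Itga8+ replicate 3 (5878). BLCs against CD51+CD140a+ cells had 4, beside 3808 of all genes higher and 2770 lower. With single libraries left out they had 2 to 4 (5159 to 7266 of all genes), with 2 without CD51+CD140a+ replicate 1 (5473). Between Sca-1+ and CD51+CD140a+ cells the 0 became 1 (Ctss) when only these populations were fitted and when both libraries that stood apart were left out. Those fits called 4659 and 4524 of all genes, against 2093 higher and 1734 lower in Sca-1+ cells in the fit of all 12 libraries.

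The share of Ctsz in Itga8+ cells, 30.0% of the summed TPM, was 15.5% in CPM, 26.3% over all cathepsins tested, 25.9% with the longest coding transcript and 25.7% with unshared exon bases. Ctsk in BLCs was 13.5% in CPM, and Ctsb in Sca-1+ cells 49.0% in CPM and 29.3% over all cathepsins. Ctsz in CD51+CD140a+ cells was 9.73% in CPM, 23.4% over all cathepsins, 20.7% with the coding transcript and 22.7% with unshared exon bases. CPM does not divide by length. For the other changes the cause was not tested.

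With the replicate number as a block the numbers of members called in the 6 comparisons stayed at 1, 3, 4, 2, 4 and 0. Of all genes 433, 2878, 5450, 4168, 5754 and 3254 were called in that setting. The deviations of same-numbered libraries did not go together (r of 0.20, -0.58 and -0.50 between Itga8+ cells and BLCs), so the numbers were not treated as pairs. Libraries of unlike number did go together, Itga8+ replicate 2 with Itga8- replicate 3 (r = 0.59) and Itga8+ replicate 3 with Itga8- replicate 2 (r = 0.62). A block on the number does not take up these matches.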
